A study of Oryza sativa Japonica Group with 59 samples.

Results

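The effect of losing the chromomethylase CMT3b was compared between the egg cell and the male meiocyte of rice. The comparison used 11 of the 59 samples of the series, of which 27 are RNA-seq libraries: WT egg (3 libraries), *cmt3b* egg (2 libraries), WT meiocyte (3 libraries) and *cmt3b* meiocyte (3 libraries). They were chosen by label alone, as every egg and meiocyte RNA-seq sample of wild type and of *cmt3b*. All plants were of the ZH11 (Zhonghua11) variety. The *cmt3b* plants were CRISPR/Cas9 knockouts without the Cas9 transgene, and the wild type was a line regenerated from tissue culture. Which mutant line each library came from is not given in the sources used here, so the effect of *cmt3b* and that of a line cannot be told apart. Eggs were released from unpollinated ovules and meiocytes from young anthers, and the cells were picked with a micromanipulator. For each gene the change from WT to *cmt3b* was measured in egg and in meiocyte, and the difference of the changes (egg minus meiocyte) was tested itself, as an interaction.

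CHROMOMETHYLASE3 enzymes methylate cytosine in the CHG context (H is A, C or T). They bind nucleosomes that carry H3K9me2, and the methylated DNA in turn attracts the enzymes that write this histone mark. The loop keeps transposons and related genes silent. The meiocyte is the diploid cell that enters meiosis in the anther, whereas the egg is a haploid gamete that waits for fertilization with little cell division behind it. Rice has a pair of such genes, *CMT3a* and *CMT3b*.

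The knockouts rest on the guide RNAs below, which are shown because every contrast here depends on them. They were taken from the primer table of the study and are written 5′ to 3′. Capitals mark the 12 bases at the 3′ end, next to the PAM, where mismatches are least tolerated by Cas9. Both target *CMT3b* (LOC_Os03g12570) on chromosome 3.
CMT3b sgRNA-1: aggggaccGAGCTCGACAGT
CMT3b sgRNA-2: acataatcACCCATACTCGC

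*CMT3b* itself was lower in the mutant libraries of both cell types. It stood at 4.76, 4.47 and 4.77 CPM (counts scaled to the library total after TMM adjustment) in WT egg and at 0 and 0.0825 CPM in *cmt3b* egg, which is at least 16.9-fold lower when 3 counts in the smallest library are taken as the floor. In WT meiocyte it stood at 40.2, 32.1 and 37.8 CPM, and in *cmt3b* meiocyte at 7.95, 8.90 and 8.75 CPM. The mutant and WT libraries did not overlap in either cell type. The log2 change was -2.11 ± 0.09 (SE) in meiocyte (edgeR adjusted p = 5.8e-21), and the fall was larger in egg (adjusted p of the difference = 1.4e-06). Meiocytes of the mutant thus kept *CMT3b* reads, and whether those reads come from an edited transcript was not tested.

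Total counts were 16151914 to 25610860 in WT egg, 10142664 and 11388970 in *cmt3b* egg, 12081830 to 16678222 in WT meiocyte and 16666398 to 20049483 in *cmt3b* meiocyte. Of 55986 features, 25265 had enough counts to be tested, and 19030 of them were measured in both cell types, meaning a mean of at least 1 CPM in at least 1 group of each. Replicates were very alike, with a biological coefficient of variation of 3.39%. Mutant and WT libraries did not overlap for 74.2% of tested genes in egg and for 66.9% in meiocyte, so lack of overlap is the common state here. Whether replicates came from separate plants is not stated, and p-values then measure the spread between these libraries, which may be technical. The egg and meiocyte identities were not checked by marker genes, because the files give locus numbers and the marker symbols could not be paired with them. In pooled cells, fewer cells of a type and less RNA per cell cannot be told apart.

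In egg, 3382 genes (13.4% of those tested) were higher and 1907 (7.55%) lower in *cmt3b*. In meiocyte, 2655 (10.5%) were higher and 2030 (8.03%) lower. A call required an adjusted p under 0.01 in edgeR's quasi-likelihood test and a fold change over 2. The balance of rises and falls depends on the scaling of the libraries. With library totals in place of TMM factors, a choice added after the data were seen, 2684 genes were higher and 2937 lower in egg, and 2055 higher and 2650 lower in meiocyte. That scaling put the median gene at -0.14 in egg and -0.20 in meiocyte on the log2 scale, but at 0.00 for the difference. The difference itself is therefore less exposed to the choice: 3635 genes (14.4%) responded more positively in egg and 3004 (11.9%) more positively in meiocyte, against 3514 and 3187 with library totals.

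The egg and meiocyte effects share no library, so no common library adds to their overlap. Of the genes that rose in *cmt3b* egg, 642 also rose in *cmt3b* meiocyte. They are 19.0% of the egg list, where 10.5% of all tested genes rose in meiocyte, and 24.2% of the meiocyte list, where 13.4% of all tested genes rose in egg. Over all tested genes the falling genes overlapped no more than the background, with 134 in common (7.03% of the egg list against 8.03% of all tested genes). Genes that fell in egg and rose in meiocyte numbered 248, or 13.0% of the egg list against 10.5%. The reverse, a rise in egg and a fall in meiocyte, was near that background, with 300 genes (8.87% of the egg list against 8.03%). These backgrounds include genes silent in egg, which have no measurable response there. Among genes called in meiocyte without a call for the difference, 746 falling and 517 rising ones had 3 counts or fewer in every egg library. Whether falls or opposite responses exceed the background among genes measured in both cell types was not tested. Across the 25265 genes the effects had a Pearson correlation of 0.10 and a Spearman correlation of 0.04, and across the 19030 genes measured in both cell types 0.17 and 0.05. These are descriptions across genes of 2 pairs of groups, and genes are not independent replicates.

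**Figure D1:**
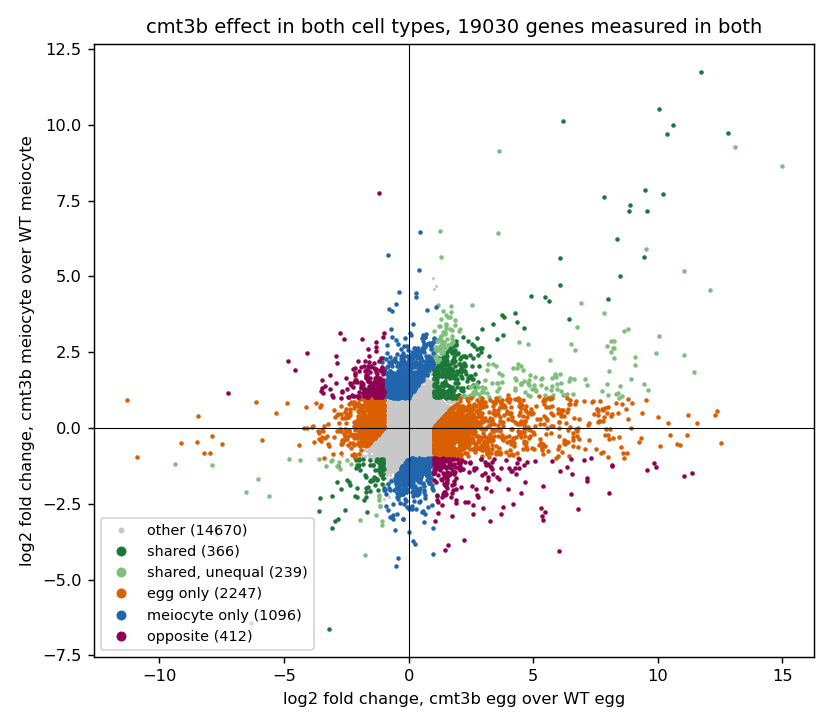
Log2 fold change of *cmt3b* over WT in egg (x axis) and in meiocyte (y axis) for the 19030 genes measured in both cell types, one point a gene, coloured by response class. Most coloured points lie along the axes (2247 egg only, 1096 meiocyte only), with 366 shared and 239 shared but unequal genes in the corners of equal sign and 412 opposite genes in the others.

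Each gene was placed by its 3 calls. A shared response was called in the same direction in both cell types with no call for the difference, and it held 402 rising genes (1.59% of those tested) and 108 falling ones (0.427%). A further 240 rising (0.95%) and 26 falling genes (0.103%) moved in the same direction by unequal amounts. A response in egg only, which needs the difference to be called too, was found for 1867 rising (7.39%) and 1000 falling genes (3.96%). Here 'only' means no call in the other cell type, where a change under 2-fold may still stand. The aquaporin gene TIP1, in this class, changed by -0.78 (log2) in meiocyte (edgeR adjusted p = 2.8e-18). Without the fold limit the opposite class held 2113 genes up and 1738 down in egg. A response in meiocyte only was found for 823 rising (3.26%) and 534 falling genes (2.11%). The excess of rises in these classes depends on the scaling. With library totals in place of TMM factors, 1517 genes rose and 1483 fell in egg only, and 673 rose and 707 fell in meiocyte only. The directions were opposite in the last class, where 300 genes rose in egg and fell in meiocyte (1.19%) and 248 fell in egg and rose in meiocyte (0.982%). Further genes were called in one cell type without a call for the difference, and they were left in no class. In egg these were 573 rising and 525 falling genes, and in meiocyte 942 and 1062. The difference had an adjusted p under 0.01 but was under 2-fold for 214 and 197 of the egg genes and for 146 and 105 of the meiocyte genes.

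**Figure D2:**
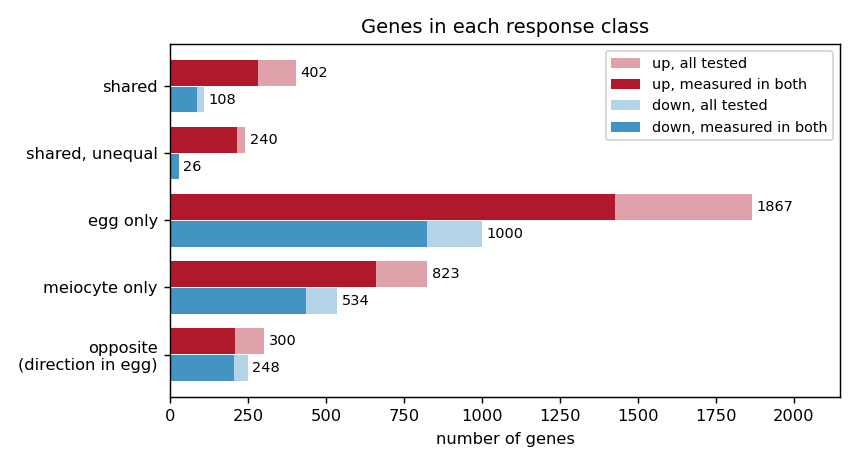
Number of genes (x axis) in each response class, rising in red and falling in blue, with the genes measured in both cell types in full colour and all tested genes in pale colour. The egg-only bars (1867 up, 1000 down) are the longest and the shared falling bars (108 and 26) the shortest.

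Many of these genes were silent in egg. Of the 942 genes that rose in meiocyte without a call for the difference, 517 had 3 counts or fewer in every library of both egg groups, and of the 1062 that fell there, 746 did. Such genes have no measurable response in egg, so a difference from meiocyte cannot be measured for them. DESeq2's Wald test still called it for LOC_Os04g37930 (-8.14) and LOC_Os07g48000 (-7.36 in edgeR, -6.41 in DESeq2). Neither locus had a read in egg, so these calls rest on the change in meiocyte. ONAC127 (LOC_Os11g31340), a NAC transcription factor, had no read in any egg library and stood at 1.04, 0.893 and 0.579 CPM in WT meiocyte against 7.44, 7.29 and 8.26 CPM in *cmt3b* meiocyte. LOC_Os04g37930, which the study's table annotates only as an expressed protein, was at 0 in all egg and WT meiocyte libraries and at 9.41, 9.77 and 7.84 CPM in *cmt3b* meiocyte, at least 33.6-fold higher. An unclassified retrotransposon gene, LOC_Os07g48000, behaved alike with 0 reads in egg and 4.67, 5.42 and 5.65 CPM in *cmt3b* meiocyte (at least 19.6-fold higher).

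The largest shared rises took genes from nearly no reads to over 10 CPM in both mutant cell types. LOC_Os04g43090, annotated as an expressed protein, had 0 CPM in the 3 WT egg libraries and 26.0 and 23.7 CPM in *cmt3b* egg. In WT meiocyte it was at 0, 0.0893 and 0.0643 CPM and in *cmt3b* meiocyte at 210, 182 and 198 CPM. These are rises of at least 165-fold and at least 735-fold. LOC_Os07g06834 rose at least 344-fold in egg, from 0 CPM to 51.7 and 52.2 CPM, and at least 103-fold in meiocyte, where the mutant libraries held 28.1, 27.4 and 27.2 CPM.

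Among shared rising genes that the study's tables annotate beyond 'expressed protein', transposon-derived ones led. Of the 40 transposon-annotated genes, 33 stand in the study's meiocyte list, picked on a rise in *cmt3b* meiocyte. Their lead is therefore not independent of that choice. The unclassified retrotransposon gene LOC_Os06g40240 was at 0, 0 and 0.034 CPM in WT egg and at 21.9 and 24.5 CPM in *cmt3b* egg. In meiocyte it moved from 0.0746, 0 and 0.129 CPM to 17.7, 17.8 and 16.9 CPM, so all mutant libraries of both cell types lay far above all WT libraries. The bounds are at least 154-fold in egg and at least 65.2-fold in meiocyte. A second retrotransposon gene, LOC_Os06g49350, rose by 5.47 ± 0.29 (SE) in egg and 4.34 ± 0.19 in meiocyte on the log2 scale, and the difference was called (1.64 and 1.39) without WT egg replicate 2 or *cmt3b* egg replicate 1. LOC_Os10g29400, from a CACTA (En/Spm) DNA transposon, rose by 3.74 ± 0.26 and 3.73 ± 0.41. The NB-ARC gene LOC_Os11g29920, of the family of intracellular immune receptors, was at 0.063, 0 and 0 CPM in WT egg and 1.38 and 1.73 CPM in *cmt3b* egg, and it went from 0.224, 0.357 and 0.257 CPM to 4.45, 5.02 and 5.77 CPM in meiocyte.

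Rising genes often lay beside others of their own class. In the order of the locus numbers, 25.1% of the 642 genes that rose in both cell types were next to another of them among tested genes, while 4.27% of all other tested genes were next to one. The shares were 21.7% against 13.4% for rises in egg only and 16.9% against 5.91% for rises in meiocyte only. For falls in both cell types they were 6.02% against 1.01%, so the excess was not limited to rising genes. Opposite genes gave 6.33% against 2.29% where they rose in egg and 2.42% against 1.94% where they fell. Whether the classes differ in this was not tested. The genes that rose in both formed 22 runs of at least 3 loci, 79 loci in all, and 11 of the runs were on chromosomes 10 and 12. The share of tested genes that rose in both was 4.34% on chromosome 10 and 3.84% on chromosome 12, and between 1.63% and 2.82% on the others. Of the 79 loci, 6 carry an annotation in the study's tables: an RNA polymerase beta subunit, a Rubisco large chain, a Clp protease, an ATP synthase A subunit, a mitochondrial ribosomal protein S3 and an expressed protein. Genes for such subunits are known from organelle genomes, and copies of organelle DNA lie in the rice nuclear genome, so the reads of such loci cannot be assigned to one copy with certainty. The 402 shared rising genes had a median length of 1138 bases (as implied by the deposited FPKM) against 1694 for all tested genes. The other rising classes were short as well, with 1110 bases for unequal rises, 1212 for egg only, 1088 for opposite genes that rose in egg and 1386 for meiocyte only, and the part of length in the result was not tested.

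Shared falls were few. Of the genes with at least 10 CPM in the higher group, LOC_Os03g20120 and LOC_Os04g44740 were named by the rule. LOC_Os03g20120 dropped from 81.1, 84.6 and 79.7 CPM to 10.6 and 11.96 CPM in egg and from 47.3, 50.2 and 45.9 CPM to 6.71, 5.02 and 6.14 CPM in meiocyte. The log2 changes of -2.85 ± 0.08 (SE) and -3.001 ± 0.08 had a difference of 0.15 ± 0.13 that did not pass (adjusted p = 0.36). LOC_Os04g44740 fell by 2.94 ± 0.11 in egg and 3.06 ± 0.17 in meiocyte. The tables used here annotate neither locus. With library totals in place of TMM factors, the shared falling genes numbered 210 and the unequal ones 43.

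Where the sizes differed, most rises were larger in egg: 151 of the 240 unequal rising genes had the larger fitted fold there and 89 in meiocyte. WT egg was at the floor for 70 of the 240 and WT meiocyte for 9, so the fitted folds are less certain in egg. The fitted median log2 changes were 3.58 in egg and 2.09 in meiocyte. With floor values set to their bound they were 2.80 and 2.07. The patatin-like phospholipase pPLAIIIbeta (LOC_Os03g43880) was at 0.0945, 0.0503 and 0 CPM in WT egg and at 28.2 and 33.0 CPM in *cmt3b* egg, at least 203-fold higher. In meiocyte it rose from 4.78, 6.25 and 4.95 CPM to 27.6, 23.8 and 28.4 CPM, a log2 change of 2.33 ± 0.11. The mutant cell types thus met at a similar level from very different starting points. LOC_Os02g52010, a phosphate-induced protein 1 family gene, rose by 7.77 ± 0.24 in egg and 1.22 ± 0.16 in meiocyte. The reverse order was seen for the retrotransposon gene LOC_Os11g35970, which had no read in WT meiocyte and 3.87, 4.62 and 3.89 CPM in *cmt3b* meiocyte, while it went from 0.315, 0.352 and 0.306 CPM to 4.51 and 3.63 CPM in egg.

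The egg-only class was the largest. LOC_Os03g18779 was at 0.0945, 0.0503 and 0 CPM in WT egg and at 272 and 292 CPM in *cmt3b* egg, at least 1871-fold higher. In meiocyte it stayed at 2.39, 2.23 and 3.15 CPM in WT and 3.79, 3.08 and 3.89 CPM in the mutant (log2 change 0.44 ± 0.18, adjusted p = 0.032). LOC_Os07g05840 rose from 0 to 40.7 and 45.0 CPM in egg and was between 1.64 and 2.57 CPM in every meiocyte library. Both loci had some reads in WT meiocyte and nearly none in WT egg.

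Annotated egg-only rises covered several families. RLCK19 (LOC_Os01g03690), a receptor-like cytoplasmic kinase, went from 0.315, 0.302 and 0.443 CPM to 7.36 and 8.25 CPM in egg (log2 change 4.42 ± 0.23), with -0.19 ± 0.17 in meiocyte. The RING-type zinc finger gene LOC_Os07g43740 went from 0.126, 0 and 0 CPM to 2.12 and 2.39 CPM. The X8 domain gene LOC_Os01g55820 rose by 3.16 ± 0.20, against -0.81 ± 0.13 in meiocyte. LAX2 (LOC_Os03g14080), annotated as an amino acid transporter of the family that holds the auxin importers, rose by 3.07 ± 0.39 from levels under 1 CPM.

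Falls in egg only included genes that vanished from the mutant egg. LOC_Os04g01740 stood at 19.2, 19.1 and 17.2 CPM in WT egg and had no read in either *cmt3b* egg library, at least 67-fold lower, while it changed by 0.91 ± 0.13 in meiocyte. LOC_Os08g32410 went from 14.3, 13.9 and 13.7 CPM to 0 in egg, at least 50.7-fold lower, and from 14.7, 16.4 and 17.1 CPM to 7.88, 9.23 and 7.90 CPM in meiocyte. The placing of both rests on the fold limit in meiocyte: without WT meiocyte replicate 1 the changes there were 1.008 and -1.01, and without *cmt3b* meiocyte replicate 2 that of LOC_Os08g32410 was -1.03, all past the limit. Among annotated loci, LOC_Os07g44060, a haloacid dehalogenase-like hydrolase, fell from 21.7, 20.4 and 20.1 CPM to 0.276 and 0.412 CPM. LOC_Os01g03680 (BBTI8), a Bowman-Birk type protease inhibitor, fell from 59.1, 63.8 and 59.1 CPM to 5.15 and 4.21 CPM in egg and moved from 12.1, 9.65 and 10.3 CPM to 19.9, 20.1 and 17.7 CPM in meiocyte. The next locus number is that of RLCK19, which moved in the other direction in egg.

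In the meiocyte-only class the neighbouring loci LOC_Os09g37420 and LOC_Os09g37430 rose together. LOC_Os09g37430 went from 0.298, 0.536 and 0.514 CPM to 23.3, 24.3 and 23.8 CPM in meiocyte and from 1.54, 1.56 and 1.60 CPM to 1.10 and 0.66 CPM in egg. LOC_Os09g37420 went from 2.39, 3.22 and 2.57 CPM to 40.4, 40.7 and 41.5 CPM in meiocyte. The CACTA transposon gene LOC_Os04g02360 rose by 4.08 ± 0.17 in meiocyte, from 0.895, 0.804 and 0.965 CPM to 15.3, 16.0 and 14.5 CPM, and in egg it stood at 2.14, 1.81 and 1.74 CPM in WT and 1.66 and 1.07 CPM in the mutant (log2 change -0.50 ± 0.26, adjusted p = 0.094). The plastid-type apocytochrome f locus LOC_Os06g39738 rose by 2.68 ± 0.08 in meiocyte and by 0.58 ± 0.07 in egg.

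Falls in meiocyte only included an antioxidant enzyme and a water channel. APX2 (LOC_Os07g49400), a cytosolic ascorbate peroxidase that removes hydrogen peroxide, went from 917, 955 and 909 CPM to 242, 226 and 250 CPM in meiocyte (log2 change -1.95 ± 0.04), while its egg change was 0.20 ± 0.04 and turned negative with library totals. The plasma membrane aquaporin PIP1 (LOC_Os04g47220) went from 114, 126 and 117 CPM to 46.0, 45.5 and 44.2 CPM in meiocyte and from 15.7, 18.1 and 16.8 CPM to 25.6 and 28.1 CPM in egg. The zinc RING finger gene LOC_Os09g35690 fell by 2.78 ± 0.09 in meiocyte. LOC_Os05g38040 was abundant in egg, at 1090, 1117 and 1080 CPM in WT and 1214 and 1269 CPM in *cmt3b*, and in meiocyte it dropped from 22.8, 21.8 and 24.6 CPM to 1.46, 1.47 and 2.19 CPM.

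Opposite responses could exchange the order of the cell types. LOC_Os11g26790 rose from 0.189, 0.251 and 0.409 CPM to 18.2 and 19.96 CPM in egg and fell from 37.8, 37.3 and 35.7 CPM to 1.82, 2.27 and 2.43 CPM in meiocyte. It was higher in meiocyte among WT libraries and higher in egg among mutant ones. Its log2 changes were 6.04 ± 0.18 and -4.07 ± 0.11. LOC_Os06g05000 rose from 14.3, 15.9 and 15.4 CPM to 141 and 146 CPM in egg and fell from 23.3, 26.0 and 28.2 CPM to 3.14, 2.94 and 3.16 CPM in meiocyte. MADS83 (LOC_Os04g24810), a MADS-box transcription factor, was at the floor in WT egg and at 1.84 and 2.31 CPM in *cmt3b* egg, at least 13.8-fold higher, whereas it fell from 10.9, 8.04 and 8.23 CPM to 3.06, 2.54 and 2.37 CPM in meiocyte. MGH3 (LOC_Os07g40290), annotated as GH3.8, an enzyme that joins auxin to amino acids, rose by 4.35 ± 0.47 in egg and fell by 1.15 ± 0.07 in meiocyte. It is one of the study's zygotic genes, which were picked on a rise in *cmt3b* egg.

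In the other direction, *GAMYBL2* (LOC_Os03g38210), a MYB transcription factor, fell from 46.4, 45.6 and 42.7 CPM to 17.5 and 17.8 CPM in egg and rose from 24.6, 26.5 and 25.7 CPM to 83.5, 76.2 and 82.0 CPM in meiocyte. The log2 changes were -1.34 ± 0.07 and 1.66 ± 0.06. *EIL6* (LOC_Os04g38400), of the EIN3-like family of ethylene signalling, fell from 10.7, 10.96 and 9.26 CPM to 1.47 and 1.73 CPM in egg and rose from 1.12, 1.34 and 0.836 CPM to 2.48, 2.34 and 2.55 CPM in meiocyte. The leucine-rich repeat gene LOC_Os05g23250 fell by 1.80 ± 0.12 and rose by 1.22 ± 0.08. Of the loci without annotation, LOC_Os05g03640 fell by 2.15 ± 0.10 in egg and rose by 1.98 ± 0.14 in meiocyte, and LOC_Os04g41160 fell by 1.76 ± 0.07 and rose by 1.87 ± 0.08.

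**Figure D3:**
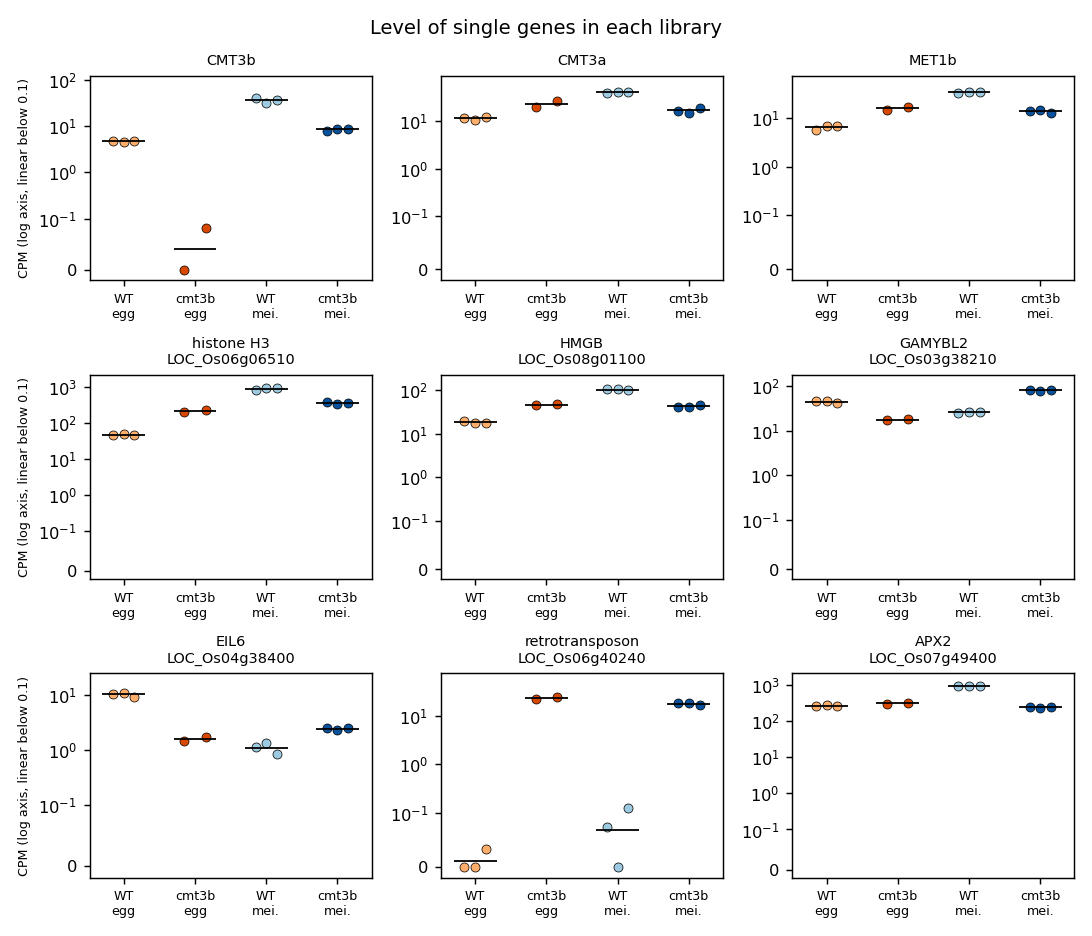
CPM of 9 genes in each library (points) with the group mean (line), on a log axis that is linear below 0.1 CPM, for WT egg, *cmt3b* egg, WT meiocyte and *cmt3b* meiocyte (mei.). *MET1b*, histone H3 and HMGB rise in egg and fall in meiocyte, *GAMYBL2* and *EIL6* do the reverse, and the retrotransposon gene LOC_Os06g40240 rises from near 0 to 21.9 and 24.5 CPM in egg and to 16.9 to 17.8 CPM in meiocyte.

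The other DNA methylation genes did not respond alike in the cell types. *MET1b* (LOC_Os07g08500), a maintenance methyltransferase for CG sites, rose from 5.80, 6.89 and 7.12 CPM to 14.9 and 17.2 CPM in egg and fell from 34.0, 34.6 and 34.5 CPM to 14.1, 15.0 and 12.8 CPM in meiocyte. Its log2 changes were 1.29 ± 0.11 and -1.30 ± 0.08 (adjusted p of the difference = 1.8e-18). *CMT3a* (LOC_Os10g01570), the paralog of *CMT3b*, fell from 39.2, 39.7 and 41.2 CPM to 16.4, 14.9 and 18.8 CPM in meiocyte. In egg it stood at 11.3, 10.7 and 12.3 CPM in WT and 19.4 and 25.8 CPM in the mutant, a log2 change of 0.98 ± 0.10 that lay just under the fold limit. Without *cmt3b* egg replicate 1 this change was 1.16 and passed the limit, which would make the response opposite. The study names MET1 and CMT3a among 83 zygotic genes that it picked on a rise in *cmt3b* egg. It thus counts *CMT3a* as raised there, which was not called here. The egg direction of both genes was part of that choice, and only their meiocyte values are free of it.

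Per length of gene, the order of these genes was the same in both WT cell types for the methyltransferases. In WT egg the deposited FPKM was 8.84 ± 0.67 (SD, n = 3) for *CMT3a*, 5.08 ± 0.54 for *MET1b* and 0.984 ± 0.038 for *CMT3b*. In WT meiocyte it was 23.4 ± 0.54, 19.99 ± 0.034 and 5.85 ± 0.72. Among the genes for JmjC histone demethylases, *JMJ706* (LOC_Os10g42690) rose from 3.53, 4.68 and 4.33 CPM to 9.47 and 9.65 CPM in egg. Its meiocyte change was 0.38 ± 0.08 and the difference was under the fold limit. *JMJ707* (LOC_Os02g46930) was not called, with log2 changes of -0.07 ± 0.22 in egg and -0.18 ± 0.05 in meiocyte. *SAMS1* and *SAHH*, which make the methyl donor and clear its product, were not called in either cell type and changed by -0.69 and -0.38 in egg and by -0.12 and -0.03 in meiocyte (log2).

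Gene lists were described by counts and medians, beside all tested genes, whose median log2 change was 0.00 in egg and -0.02 in meiocyte. Symbols and annotations come from the study's gene tables, which hold genes picked partly on these libraries. The annotation lists therefore inherit the choice, and none is independent evidence of a direction in the cell type it was picked on.

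The core histones, the proteins around which DNA is wound, moved apart in the cell types. All 22 listed members were tested, and all 22 rose in egg and responded more positively there than in meiocyte. In meiocyte 6 of them fell past the 2-fold limit (27.3% against 8.03% of all tested genes) and 16 were not called. The uncalled changes include falls under 2-fold, such as -0.90 (log2) for LOC_Os08g38300 (edgeR adjusted p = 9.4e-22). All 22 belong to the study's list of zygotic genes raised in *cmt3b* egg, so the rise in egg was fixed by the choice and the meiocyte values are the new part. There the log2 changes ran from -1.52 to 0.24 with a median of -0.60. The summed level of the list was 1474, 1576 and 1489 CPM in WT egg, 4683 and 4889 CPM in *cmt3b* egg, 15130, 16520 and 16090 CPM in WT meiocyte and 10170, 8928 and 9850 CPM in *cmt3b* meiocyte. The histone H3 gene LOC_Os06g06510 went from 47.8, 49.97 and 46.6 CPM to 211 and 230 CPM in egg and from 855, 976 and 971 CPM to 393, 340 and 361 CPM in meiocyte. H3R-11 (LOC_Os06g06460), another histone H3 gene, changed by 2.07 ± 0.05 and -1.25 ± 0.04. Histone genes are near-identical copies, so reads may be split between them.

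The 17 chromosome and spindle genes, all from the same zygotic list, rose in egg in 16 cases. In meiocyte 2 rose (11.8% against 10.5% of all tested genes), 3 fell (17.6% against 8.03%) and 12 were not called, and the median was -0.03. HMGB (LOC_Os08g01100), a DNA-bending chromatin protein, rose from 19.4, 17.7 and 17.1 CPM to 45.1 and 47.4 CPM in egg and fell from 103, 103 and 101 CPM to 40.4, 41.1 and 45.1 CPM in meiocyte. The microtubule-associated gene LOC_Os05g47970 rose by 3.05 ± 0.45 in egg, from 0.126, 0.151 and 0.136 CPM to 1.66 and 0.743 CPM, and changed by -0.03 ± 0.12 in meiocyte, where it stood between 8.20 and 9.78 CPM. The whole zygotic list of 83 genes had a median of 1.45 in egg, which the choice fixed, and -0.29 in meiocyte. There 4 members rose (4.82% against 10.5% of all tested genes) and 20 fell (24.1% against 8.03%).

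The list of 148 genes with reduced CHG methylation and higher expression in *cmt3b* meiocyte was picked on meiocyte, so egg is the free cell type. Of 145 tested, 49 rose in egg (33.8%), 5 fell and 91 were not called, whereas 13.4% of all tested genes rose there. WT egg was at the floor for 96 of the 145. The median log2 change in egg was 0.40 over all 145 fitted values, which include genes at the floor in both egg groups. Over the 82 genes above the floor in at least 1 egg group it was 1.36, with floor values set to their bound. The list held 29 shared rises, 18 unequal rises, 16 rises in meiocyte only and 4 genes that fell in egg while they rose in meiocyte. Of the 122 genes picked in the same way in *cmt3b* sperm, 103 were tested, with medians of 0.45 in egg and 0.86 in meiocyte. In egg 34 rose (33.0% against 13.4% of all tested genes) and 4 fell (3.88% against 7.55%). In meiocyte 49 rose (47.6% against 10.5%) and 9 fell (8.74% against 8.03%). Plastid genes, described next, gave 9 of the 12 shared and 9 of the 14 unequal rises in this sperm list.

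Most of the listed genes of plastid photosynthesis and plastid gene expression rose in both cell types. All 29 were tested, 19 rose in egg (65.5%, against 13.4% of all tested genes) and 27 in meiocyte (93.1% against 10.5%), none fell in either, and 17 responded more in meiocyte and 1 more in egg. All 29 stand in the study's list picked in sperm, for reduced CHG methylation and higher expression in the same mutant. They are thus not plastid genes at large, and the shares are not those of an unpicked set. The median log2 change was 1.17 in egg and 2.37 in meiocyte. Their summed level was 588, 571 and 613 CPM in WT egg and 1143 and 1104 CPM in *cmt3b* egg, and it was 217, 213 and 236 CPM in WT meiocyte and 998, 1061 and 1006 CPM in *cmt3b* meiocyte. LOC_Os05g35320, an ATP synthase-like locus, rose by 1.31 ± 0.13 in egg and 3.597 ± 0.17 in meiocyte. A pair of nuclear genes for the small subunit of Rubisco, taken as markers of green tissue, were called up in egg and down in meiocyte, and their part in the result was not tested. RbcS5 (LOC_Os12g19381) was at 3.37, 3.27 and 3.17 CPM in WT egg and 7.72 and 6.43 CPM in *cmt3b* egg, but fell from 6.57, 6.34 and 7.91 CPM to 3.14, 2.41 and 2.98 CPM in meiocyte. The gene rbcS (LOC_Os12g17600) fell from 7.09, 6.61 and 6.17 CPM to 2.19, 1.94 and 1.94 CPM in meiocyte, and its rise in egg, from 0.302 to 0.545 CPM up to 2.21 and 0.66 CPM, was lost without *cmt3b* egg replicate 1 (log2 change 0.45).

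Of 38 transposon-annotated genes tested, 31 rose in meiocyte (81.6% against 10.5% of all tested genes). In egg 14 rose (36.8% against 13.4%), 1 fell and 23 were not called, and 1 fell in meiocyte. The study's meiocyte list holds 33 of the 40 listed, so the egg count is the freer one. WT egg was at the floor for 19 of the 38 tested, and 24 of the 38 were above the floor in at least 1 egg group. The shared rises in this list (7 genes) were joined by 5 unequal ones, and 5 rose in meiocyte only.

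Of 26 genes tested from the transcription factor list, 8 rose and 5 fell in egg (30.8% and 19.2%, against 13.4% and 7.55% of all tested genes), and 8 rose and 3 fell in meiocyte (30.8% and 11.5%, against 10.5% and 8.03%). The list counts LOC_Os08g33100, annotated as a core histone and not among the 22 above, which rose in egg, and LOC_Os03g21660, which is also in the transposon list and rose in meiocyte. The response was more positive in egg for 7 and more positive in meiocyte for 8. Beside *GAMYBL2* and *EIL6*, NAC5 (LOC_Os11g08210) and HAP3L (LOC_Os09g39490) had opposite responses in the other direction, with log2 changes of 1.08 and 1.11 in egg and -1.79 and -1.33 in meiocyte. Both are also in the zygotic list, and they were chosen after their values were seen. Of 6 aquaporins, 2 rose in egg (33.3% against 13.4% of all tested genes) and 1 fell in meiocyte (16.7% against 8.03%). The tonoplast aquaporin TIP1 (LOC_Os03g05290) went from 109, 116 and 105 CPM to 284 and 302 CPM in egg and from 816, 876 and 837 CPM to 517, 458 and 494 CPM in meiocyte, where the change stayed under 2-fold.

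Of 50 ribosomal protein genes, 6 rose in egg (12% against 13.4% of all tested genes) and 6 in meiocyte (12% against 10.5%), which is near the background, and none fell below the lower limit, with lowest log2 changes of -0.39 and -0.21. The medians were 0.43 and 0.52. Their summed level went from 23250, 24250 and 23540 CPM to 32440 and 32850 CPM in egg and from 33900, 35610 and 34960 CPM to 47080, 45670 and 47310 CPM in meiocyte. The ribosomal protein L24 gene LOC_Os12g05430 rose by 1.498 ± 0.05 in meiocyte and changed by -0.19 ± 0.05 in egg. The 11 translation factors stayed within the 2-fold limit, between -0.51 and 0.88 in egg and between -0.32 and 0.40 in meiocyte (log2). The initiation factor gene eIF-3f (LOC_Os05g01450) changed by -0.42 ± 0.04 in egg and 0.40 ± 0.04 in meiocyte, both under that limit. The 9 tested F-box genes had 1 rise and 1 fall in egg (11.1% each, against 13.4% and 7.55% of all tested genes). In meiocyte they had 3 rises and 3 falls (33.3% each, against 10.5% and 8.03%). The rise in egg and 1 of the falls in meiocyte are those of H2B.7 (LOC_Os01g05970), which is also counted among the core histones. Of the cluster A genes 192 of 315 were tested, with 26 rises (13.5%) and 8 falls (4.17%) in egg and 14 rises (7.29%) and 16 falls (8.33%) in meiocyte, and of the SLM genes (sexual-lineage-specific methylation) 118 of 132, with 12 rises (10.2%) and 10 falls (8.47%) in egg and 10 rises (8.47%) and 1 fall (0.847%) in meiocyte. Over all tested genes the shares were 13.4% and 7.55% in egg and 10.5% and 8.03% in meiocyte, so most of these lie near or under the background.

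**Figure D4:**
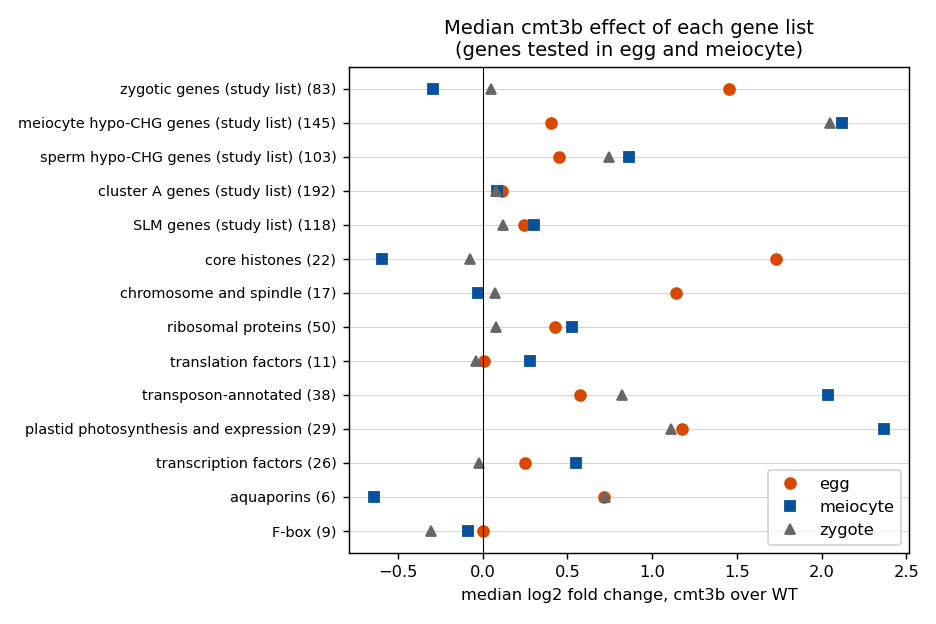
Median log2 fold change of *cmt3b* over WT for each gene list in egg, meiocyte and zygote, with the number of genes tested in parentheses. Fitted values of genes at the floor in egg or meiocyte are included. The core histones lie at 1.73 in egg and -0.60 in meiocyte, and the plastid genes at 1.17 and 2.37.

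The zygote libraries (WT and *cmt3b*, 3 each, collected after pollination) placed no gene in a class and served as a separate view of the same mutation, a comparison added after the data were seen. They were fitted alone, with 20638 genes tested, of which 1790 rose (8.67%) and 1667 fell (8.08%). Of the 402 shared rising genes 284 were tested in zygote, and 128 of these (45.1%) rose there and 20 fell. Of the 240 unequal rising genes 173 were tested, and 96 (55.5%) rose. The egg-only rising genes rose in zygote in 320 of 1405 cases (22.8%), and the meiocyte-only rising genes in 108 of 734 (14.7%).

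Genes that rose in egg and fell in meiocyte followed the egg in 78 of 214 cases (36.4%) and fell in 19 (8.88%). Genes that fell in egg and rose in meiocyte fell in zygote in 55 of 218 cases (25.2%) and rose in 10 (4.59%). Egg-only falling genes fell in 258 of 922 cases (28.0%). The core histones did not keep their egg response: their log2 changes in zygote ran from -1.19 to 0.99, so that 1 fell and none reached a 2-fold rise, and their summed level was 19590, 21560 and 19810 CPM in WT zygote and 17570, 18860 and 18680 CPM in *cmt3b* zygote. Of the 25 plastid genes tested in zygote, 17 had risen in egg and 14 rose in zygote, and 12 rose in both. Cyt b6 (LOC_Os01g57942) changed by 1.83 in egg and by 0.74 in zygote (log2). The retrotransposon gene LOC_Os06g40240 averaged 0.0239 ± 0.0414 CPM (SD, n = 3) in WT zygote and 32.9 ± 3.27 CPM in *cmt3b* zygote. *GAMYBL2* changed by 0.65 (log2), under the fold limit and in the direction of meiocyte. A gene that is low in WT enters the zygote test mainly through its mutant level, so these shares describe the members tested and not all members.

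**Figure D5:**
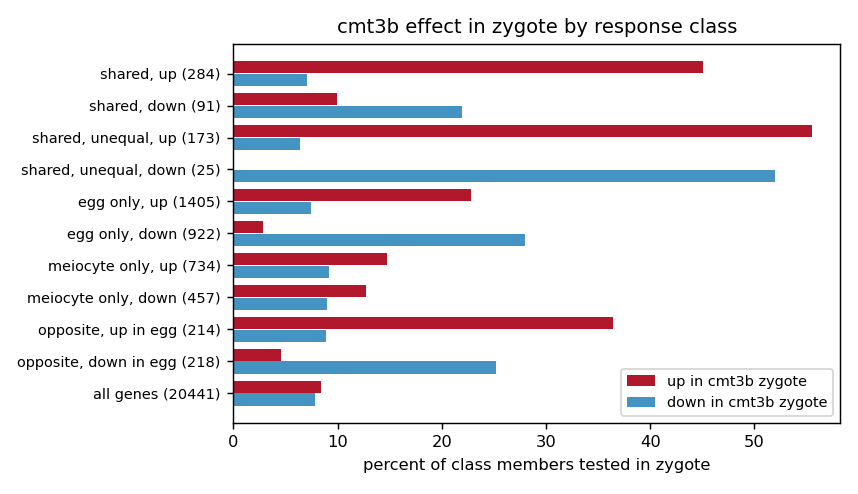
Percent of the members of each response class tested in zygote (number in parentheses) that rose (red) or fell (blue) in *cmt3b* zygote, with all genes tested in the lowest bars. Shared rising genes rose in 45.1% and unequal rising genes in 55.5% of cases.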

How the data were processed

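The deposited files hold raw counts per gene and FPKM for each library. According to the methods and the submitters' processing notes, the authors trimmed reads with fastp 0.20.1, mapped them onto MSU7.0, a rice assembly, using HISAT2 and obtained the counts from featureCounts. The FPKM were computed by the authors from the counts and library totals, and gene lengths were taken back from them. The strand setting is not given in the sources used here, so overlapping and antisense genes could not be separated.

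The counts of 11 libraries were fitted with edgeR 4.0.16 (R 4.3.3, limma 3.58.1): genes passed filterByExpr with a minimum count of 10, TMM factors were used, and a quasi-likelihood test with Benjamini-Hochberg adjustment gave the effect in egg, in meiocyte and their difference. The script was tested on simulated data. CPM were scaled by TMM, and SE are derived from the F statistic. A group with at most 3 counts in every library was taken as at the floor. Neighbouring genes were read from the order of locus numbers.

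Named genes were the methylation genes, the highest-ranked genes of each class (up to 2 over 10 CPM, and the leading annotated ones) and examples with the largest difference in each list. Members and lists were chosen with earlier results of these data known. Alternatives were DESeq2 1.42.0 (size factors and Wald test), TMM within each cell type, no filter, other limits, genes measured in both cell types, each cell type alone, a replicate block and leaving out each library. Library totals, thinned counts and the zygote fit were added after the data were seen. Bisulfite data were not analysed here.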

Additional observations from a re-analysis of the deposited data

Results flagged for a closer look

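The change from WT to *cmt3b* differed between egg and meiocyte for 3635 genes in the positive and 3004 genes in the negative direction (egg minus meiocyte), by the interaction term of edgeR's quasi-likelihood fit at an adjusted p under 0.01 and over 2-fold. The genes named by rule for which the difference passed are given here with the fitted log2 difference of the changes, which depends on the prior count where a group had 3 counts or fewer in every library. No group had the 4 libraries needed to test a single library for standing apart.

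Where both cell types moved in the same direction by unequal amounts, the difference was 8.67 for LOC_Os07g03040, 7.54 for LOC_Os01g09220, 6.75 for pPLAIIIbeta (LOC_Os03g43880), 6.55 for LOC_Os02g52010, -5.53 for LOC_Os11g35970 and 4.72 for LOC_Os12g07180. It was -4.42 for CMT3b (LOC_Os03g12570), -3.77 for LOC_Os03g01940, -2.29 for LOC_Os05g35320 and 2.13 for LOC_Os06g05440. Among rises in egg only it was 13.04 for LOC_Os07g05840, 11.84 for LOC_Os03g18779, 8.60 for LOC_Os05g02760, 7.78 for LOC_Os11g26725, 6.84 for CYP71K9 (LOC_Os06g43430) and 5.80 for LOC_Os07g43740. It was 4.61 for RLCK19 (LOC_Os01g03690), 3.96 for LOC_Os01g55820, 3.73 for LAX2 (LOC_Os03g14080), 3.07 for LOC_Os05g47970 and 2.20 for TIP1 (LOC_Os03g05290). Among falls in egg only it was -12.22 for LOC_Os04g01740, -9.96 for LOC_Os08g32410, -5.47 for LOC_Os07g44060, -4.54 for LOC_Os01g03680, -2.05 for LOC_Os09g24800 and -1.998 for PAL (LOC_Os02g41630). Among rises in meiocyte only it was -6.55 for LOC_Os09g37430, -4.72 for LOC_Os09g37420, -4.58 for LOC_Os04g02360, -2.33 for GELP45 (LOC_Os02g57110), -2.10 for LOC_Os06g39738 and -2.05 for LOC_Os11g40590. It was -1.69 for LOC_Os12g05430. Among falls in meiocyte only it was 4.28 for LOC_Os09g30414, 3.92 for LOC_Os05g38040, 3.31 for LOC_Os09g35690, 2.24 for CMT3a (LOC_Os10g01570), 2.15 for APX2 (LOC_Os07g49400) and 2.08 for PIP1 (LOC_Os04g47220). For genes that rose in egg and fell in meiocyte the difference came to 10.11 for LOC_Os11g26790, 6.46 for MADS83 (LOC_Os04g24810), 6.32 for LOC_Os06g05000, 5.50 for MGH3 (LOC_Os07g40290), 3.56 for LOC_Os06g06510 and 3.32 for H3R-11 (LOC_Os06g06460). It was 3.23 for rbcS (LOC_Os12g17600), 2.95 for LOC_Os01g06010, 2.63 for HMGB (LOC_Os08g01100), 2.59 for MET1b (LOC_Os07g08500) and 2.31 for H2B.7 (LOC_Os01g05970). For genes that fell in egg and rose in meiocyte the difference came to -4.12 for LOC_Os05g03640, -3.86 for EIL6 (LOC_Os04g38400), -3.64 for LOC_Os04g41160, -3.01 for LOC_Os05g23250, -3.002 for GAMYBL2 (LOC_Os03g38210) and -2.67 for 2-ODD12 (LOC_Os02g17940).

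Some of these placings rest on single libraries or settings. The difference of LOC_Os11g26725 lost its call under the replicate block (8.04) and in 8 of the fits that left out 1 library, with values from 5.63 without WT meiocyte replicate 2 to 7.86 without *cmt3b* egg replicate 1, so its response in egg only is not firm. The rise of 2-ODD12 (LOC_Os02g17940) in meiocyte was under the fold limit with library totals (0.85), without WT meiocyte replicate 3 (0.81) and without *cmt3b* meiocyte replicate 1 (0.97) or 3 (0.99), which would leave it a fall in egg only. The difference of GELP45 (LOC_Os02g57110) was not called without *cmt3b* egg replicate 2 (-1.48), and its rise in meiocyte was not called without WT meiocyte replicate 2 (0.82). The fall of LOC_Os03g01940 in meiocyte was under the limit without WT meiocyte replicate 3 (-0.993) or *cmt3b* meiocyte replicate 1 (-0.985), and so was the rise of LOC_Os12g07180 (0.84 and 0.93). The fall of PAL (LOC_Os02g41630) in egg was under it without *cmt3b* egg replicate 2 (-0.991).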

How the results depend on the processing

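Without the fold limit, which lets small changes pass, 7306 genes rose and 6882 fell in egg, 7025 rose and 7030 fell in meiocyte, and the difference was called for 6736 and 6428. The classes then held 1129 shared rises and 1169 shared falls, 1412 and 730 unequal ones, 2216 falls in egg only, 1350 rises and 1297 falls in meiocyte only, and 2113 and 1738 opposite genes (up and down in egg). With library totals in place of TMM factors, 2937 genes fell in egg, 210 were shared falls and 43 unequal falls. Rises and falls then numbered 1517 and 1483 in egg only and 673 and 707 in meiocyte only. No called value of a named gene changed sign under the alternatives run on it, and the cause of the shifts in counts was not tested. Leaving out each library in turn gave 2922 to 3392 rises and 1740 to 2099 falls in egg, 2459 to 2761 and 1905 to 2109 in meiocyte, and 3157 to 3621 and 2847 to 3242 for the difference. Same-numbered libraries had correlations from -0.0613 to -0.00377 between their deviations. The deviations were taken from the means of very few libraries, so they cannot tell whether the numbers pair the libraries. With the replicate block, 272 genes were opposite with a rise in egg, 1765 rose in egg only, and 586 of the 642 genes rising in both cell types were kept. *CMT3a* then reached 1.02 in egg and passed the fold limit. With 2 *cmt3b* egg libraries of 10142664 and 11388970 counts, low genes in egg were the least precise.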
